A study of Mus musculus with 6 samples.

Results

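The SOX and POU transcription factor genes other than the core pluripotency factors were examined for acetylation of histone H3 at lysine 27 (H3K27ac) in mouse embryonic stem cells (mESCs). They were chosen by symbol as the protein-coding genes named Sox with a number or Pou with a class of 1 to 6 and a factor of 1 to 3, leaving out Sox2, Pou5f1 and Pou3f1. This gave 30 of the 21853 protein-coding genes of the mouse annotation, 18 SOX genes and 12 POU genes. They lay far enough apart that no peak within 50 kb of a transcription start site (TSS) was counted for more than 1 of them.

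H3K27ac was mapped by chromatin immunoprecipitation and sequencing (ChIP-seq) with an antibody against the mark, in mESCs that the labels name E14Tg2A Rosa26-Cre Oct4-IRES-Puro and the paper's methods ES-E14TG2a, with no mention of those alleles. This is a single cell line grown with LIF and the inhibitors PD0325901 and CT-99021, which hold cells in a naive state, so the promoters of later lineages were seen only as they are before differentiation. The study held 6 samples in 3 groups of 2 replicates, namely control cells given DMSO, cells given 100 nM NVP-2, an inhibitor of the elongation kinase CDK9, and cells given actinomycin D (ActD), which blocks RNA polymerases, at 800 nM, each for 120 min, and all received human chromatin as a spike-in. The values here come from the authors' list of 22973 H3K27ac peaks in control cells, which was pooled over both control replicates. The list gives the position of each peak in mm10 and neither a height nor a read count. There is hence no error between replicates and no comparison with NVP-2 or ActD, the list does not give the reads behind a peak, and "marked" means only that a listed peak touches a promoter.

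SOX proteins bind the minor groove of DNA through an HMG box and bend it, and POU proteins bind an octamer through a POU-specific domain and a homeodomain joined by a flexible linker. In mESCs Sox2 and Pou5f1 (Oct4) bind side by side at enhancers of pluripotency genes, while most of their relatives direct later lineages such as neurons, cartilage, vessels, glia, sensory organs, pituitary and germ cells. H3K27ac is laid down mainly by the acetyltransferases p300 and CBP and is found at active promoters and enhancers, whereas silent developmental promoters in mESCs often carry Polycomb marks on CpG-rich DNA.

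The peak list was checked against markers of the labelled cell type. Of 12 stem cell markers, 10 had a marked promoter, and of 10 markers of differentiated cells none was marked. The exceptions among the stem cell markers were Esrrb and Klf4, each with 2 peaks within 50 kb, the nearest 33.7 and 14.7 kb from the TSS used. Why they were unmarked was not tested, and an unmarked call does not show that a promoter lacks the mark. The core genes left out of the set differed from each other. The Sox2 promoter lay in a peak of 19693 bp and the Pou5f1 promoter in a peak of 34042 bp, whereas Pou3f1, a gene of the epiblast and of myelinating glia, had no peak at its promoter and its nearest peak lay 36.0 kb downstream.

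The sequences below show what kinds of promoter the genes have. Each is the RefSeq promoter of build GRCm38.p6, from 250 bases before to 50 bases after the RefSeq TSS, on the strand of the gene and 5′ to 3′, with CpG dinucleotides in capitals. Of the 30 genes, 21 had a RefSeq promoter in the table used. The first 3 promoters are CpG-rich and marked.
Sox1, chr8:12395269-12395568, + strand, 37 CpGs: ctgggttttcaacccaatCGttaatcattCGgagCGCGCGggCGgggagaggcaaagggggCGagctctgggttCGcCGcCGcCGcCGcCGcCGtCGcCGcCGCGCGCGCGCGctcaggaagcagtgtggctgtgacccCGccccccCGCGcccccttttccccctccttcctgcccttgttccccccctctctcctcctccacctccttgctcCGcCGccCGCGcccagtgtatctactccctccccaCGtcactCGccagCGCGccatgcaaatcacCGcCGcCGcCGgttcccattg
Sox12, chr2:152397997-152398296, - strand, 47 CpGs: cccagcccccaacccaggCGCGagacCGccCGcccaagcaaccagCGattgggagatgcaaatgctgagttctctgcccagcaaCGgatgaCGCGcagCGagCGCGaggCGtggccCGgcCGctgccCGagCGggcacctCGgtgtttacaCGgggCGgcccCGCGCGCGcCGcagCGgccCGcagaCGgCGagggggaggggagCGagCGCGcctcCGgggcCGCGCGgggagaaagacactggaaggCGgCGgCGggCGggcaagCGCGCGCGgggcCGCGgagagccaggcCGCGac
Pou4f1, chr14:104467950-104468249, - strand, 57 CpGs: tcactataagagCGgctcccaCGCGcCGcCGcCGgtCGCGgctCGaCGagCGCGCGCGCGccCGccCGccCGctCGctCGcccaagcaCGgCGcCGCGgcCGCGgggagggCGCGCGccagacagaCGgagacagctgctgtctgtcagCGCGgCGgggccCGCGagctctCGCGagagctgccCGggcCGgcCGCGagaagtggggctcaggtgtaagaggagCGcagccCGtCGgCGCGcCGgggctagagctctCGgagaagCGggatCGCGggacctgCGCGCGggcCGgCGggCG

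The next 3 are CpG-rich and were not marked.
Sox14, chr9:99876121-99876420, - strand, 26 CpGs: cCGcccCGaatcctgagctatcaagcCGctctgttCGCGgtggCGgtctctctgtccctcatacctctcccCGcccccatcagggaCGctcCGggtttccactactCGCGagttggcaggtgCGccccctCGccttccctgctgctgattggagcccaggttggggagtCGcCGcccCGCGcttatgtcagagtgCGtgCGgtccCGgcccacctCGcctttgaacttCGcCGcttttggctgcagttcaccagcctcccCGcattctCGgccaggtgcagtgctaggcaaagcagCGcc
Sox11, chr12:27342669-27342968, - strand, 21 CpGs: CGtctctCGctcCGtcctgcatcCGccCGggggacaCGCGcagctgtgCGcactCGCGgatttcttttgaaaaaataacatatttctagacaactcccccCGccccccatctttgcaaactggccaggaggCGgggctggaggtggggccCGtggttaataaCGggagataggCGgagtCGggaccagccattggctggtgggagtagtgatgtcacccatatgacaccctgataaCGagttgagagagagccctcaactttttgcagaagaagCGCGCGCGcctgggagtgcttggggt
Pou3f2, chr4:22488317-22488616, - strand, 24 CpGs: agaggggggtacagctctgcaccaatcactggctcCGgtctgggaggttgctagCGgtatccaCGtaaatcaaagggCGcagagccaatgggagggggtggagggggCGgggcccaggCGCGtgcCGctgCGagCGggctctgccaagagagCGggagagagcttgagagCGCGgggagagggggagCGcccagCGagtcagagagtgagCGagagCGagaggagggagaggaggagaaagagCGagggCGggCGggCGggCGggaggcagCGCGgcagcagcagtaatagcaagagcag

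The last pair is CpG-poor. Sox15 was marked and Pou1f1 was not.
Sox15, chr11:69654787-69655086, + strand, 5 CpGs: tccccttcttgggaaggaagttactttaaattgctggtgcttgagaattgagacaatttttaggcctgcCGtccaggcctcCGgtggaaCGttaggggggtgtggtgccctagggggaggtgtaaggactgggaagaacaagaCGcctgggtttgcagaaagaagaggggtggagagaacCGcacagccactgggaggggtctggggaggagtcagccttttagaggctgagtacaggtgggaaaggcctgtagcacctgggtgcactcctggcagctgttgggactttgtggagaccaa
Pou1f1, chr16:65520262-65520561, + strand, 5 CpGs: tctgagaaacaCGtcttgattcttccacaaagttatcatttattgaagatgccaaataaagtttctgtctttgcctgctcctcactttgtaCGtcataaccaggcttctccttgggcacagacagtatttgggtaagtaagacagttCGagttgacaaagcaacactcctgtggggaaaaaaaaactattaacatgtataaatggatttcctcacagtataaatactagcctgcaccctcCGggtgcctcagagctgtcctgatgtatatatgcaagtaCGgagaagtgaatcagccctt

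The first question was which of these promoters carried the mark in control mESCs. For each gene, only transcripts annotated as protein-coding (or as lincRNA, for lincRNA genes) were used as isoforms, and the start of the one with the longest span in the genome served as TSS. Transcripts of other types, such as retained introns, were left out. A promoter was taken as the 1 kb on either side of it, and it was called marked where a peak overlapped it by at least 1 bp. Of the 30 genes, 10 were marked, which is 33.3% with a 95% Wilson interval of 19.2 to 51.2%. Among all protein-coding genes 48.8% were marked, a share inside that interval. The SOX genes (6 of 18) and the POU genes (4 of 12) were both at 33.3%, with intervals of 16.3 to 56.3% and 13.8 to 60.9%. Other families of developmental transcription factors had like shares, with 15 of 44 forkhead genes (34.1%), 15 of 39 Hox genes (38.5%) and 2 of 6 Gata genes (33.3%) marked. All intervals cover counting error only, and genes of a family are not replicates of a condition.

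The marked genes were spread over the SOX groups and POU classes. They were Sox1, Sox21, Sox4, Sox12, Sox13, Sox15, Pou2f1, Pou2f3, Pou4f1 and Pou6f1. At least 1 gene was marked in groups B1, B2, C, D and G of the SOX family and in classes II, IV and VI of the POU family. None of the 3 SOXE genes, the 3 SOXF genes, the single SOXH gene, the single genes of POU classes I and V and the 2 POU class III genes was marked. Groups B1, B2, C and D and classes II and IV held marked beside unmarked genes, as with Sox1 and Sox3 or Pou4f1 and Pou4f2. The peaks around 29 of the genes are drawn in the map of distances from the TSS.

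**Figure D1:**
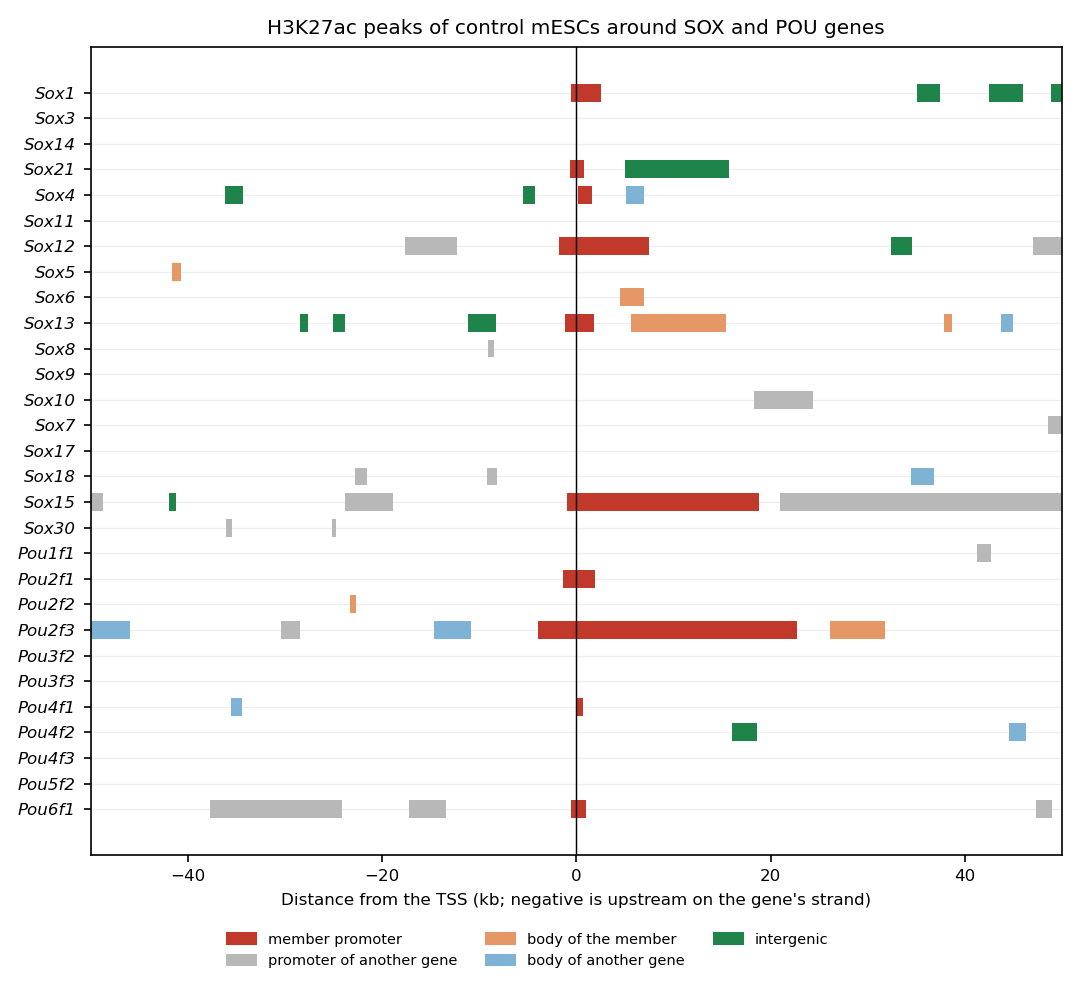
H3K27ac peaks of control mESCs (bars) within 50 kb of the TSS of each of 29 genes, by distance from the TSS in kb with upstream to the left, coloured by where the peak lies. Peaks touch the promoters of 10 genes, 10 others have peaks only farther away, and 9 rows are empty.

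Sox1 and Sox3 form group B1, the closest relatives of Sox2, which keep neural progenitors undifferentiated. The Sox1 promoter lay in a peak of 3136 bp (chr8:12394757-12397892) that reached 538 bp upstream and 2597 bp downstream of the TSS and covered 53.8% of this gene of 4.83 kb. A further 3 intergenic peaks lay 35.1, 42.5 and 48.9 kb downstream. No TSS of another protein-coding or lincRNA gene was found within 50 kb, and other gene types were not searched. Sox3 (TSS at chrX:60893430, - strand) had no peak in its window, and the nearest lay 487 kb away.

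Sox14 and Sox21 form group B2, which mostly act as repressors in neural development. Sox21 lay in a peak of 1505 bp (chr14:118236198-118237702), which also covered the promoter of the lincRNA Gm4675, whose TSS is 150 bp away, so the peak cannot be given to either gene alone. An intergenic peak of 10684 bp (chr14:118221347-118232030) began 5.0 kb downstream of the Sox21 TSS. Sox14 (TSS at chr9:99876170, - strand) had no peak within 50 kb and its nearest was 180 kb away.

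Group C holds Sox4, Sox11 and Sox12, factors of embryonic neurons and mesenchyme. The single-exon gene Sox4 was marked only by its transcribed part, since its peak of 1432 bp (chr13:28952088-28953519) began 194 bp downstream of the TSS, and it was the sole marked gene of the set whose TSS lay outside the peak. Its window held 3 other peaks, 4.28 and 34.3 kb upstream in intergenic DNA and 5.13 kb downstream in the lincRNA gene Gm26735. Sox12 lay whole in a peak of 9263 bp (chr2:152390548-152399810), which ran from 1747 bp upstream to 7515 bp downstream of its TSS. Sox11 (TSS at chr12:27342574, - strand) had the highest CpG ratio of the unmarked genes (0.908) and no peak within 258 kb.

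Group D comprises Sox5, Sox6 and Sox13, which lack a transactivation domain of their own and act as dimers, the first pair together with Sox9 in cartilage. Sox13 had 7 peaks in its window, the most of all 30 genes. Its promoter peak was 3041 bp wide (chr1:133422510-133425550), and an intronic peak of 9764 bp (chr1:133408979-133418742) began 5.63 kb downstream. Sox5 and Sox6 are long genes with many isoforms (7 and 8 TSSs), and the call of Sox6 depended on the isoform. The nearest peak to Sox6 (chr7:116031812-116034281, 2470 bp) lay 4.46 kb downstream of the TSS used (chr7:116038744, - strand) and covered the start of another isoform, so that Sox6 was marked when all protein-coding isoforms were counted or the isoform with the longest spliced length was used. The Sox5 TSS used (chr6:144209568, - strand) was 40.7 kb from its nearest peak, and Sox5 stayed unmarked when all its protein-coding isoforms were counted. The 5′ end of its gene record, where a retained-intron transcript starts, 572 kb farther upstream, lay in a GC-rich peak of 1358 bp (chr6:144781507-144782864). The Sox5 body of 954 kb held 6 peaks, which covered 1.72% of it.

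The SOXE genes Sox8, Sox9 and Sox10, which direct cartilage, testis, neural crest and glia, were unmarked, as were the SOXF genes Sox7, Sox17 and Sox18 of endothelium and endoderm. Sox9 (TSS at chr11:112782224, + strand) was 57.1 kb from its nearest peak and Sox17 (TSS at chr1:4497354, - strand) was 162 kb from it. The windows of the others held peaks at promoters of neighbours, namely Lmf1 8.48 kb from Sox8, Polr2f and 1700088E04Rik 18.3 kb from Sox10, Rp1l1 48.5 kb from Sox7, and Tcea2 and Rgs19 8.13 and 21.5 kb from Sox18. Sox18 had a further peak in the body of Prpf6, 34.5 kb downstream. Within 50 kb of these 6 genes no peak lay in intergenic DNA or in the gene itself.

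Sox15, the sole SOXG gene, is known from mESCs and from muscle progenitors. It lay whole in a peak of 19753 bp (chr11:69654351-69674103) that began 963 bp upstream of its TSS and ran 18789 bp downstream. That peak also covered the promoters of Cd68, Eif4a1 and Mpdu1, and the next, 43209 bp wide, those of Senp3, Tnfsf12, Tnfsf13 and Tnfsfm13. Its window was the most densely covered of the 30, with 55.7% of the bases in peaks. It held the TSSs of 11 other protein-coding or lincRNA genes, the highest number in the set. Sox30 (SOXH), needed for late sperm development, was unmarked although its promoter was CpG-rich, and both peaks of its window lay at promoters of other genes (Thg1l and Lsm11), 24.7 and 35.5 kb upstream.

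POU class II binds the octamer in many tissues. Pou2f1 (Oct1), which is expressed in most cells, lay in a peak of 3297 bp (chr1:166000746-166004042), the sole peak of its window, which also covered the promoter of the lincRNA Gm26665 with a TSS 282 bp away. Pou2f1 has 10 TSSs, and it was unmarked when the isoform with the longest spliced length was used. Pou2f3, a factor of tuft cells and of the epidermis, had the widest promoter peak of the set, 26667 bp (chr9:43187632-43214298), which reached from 3929 bp upstream to 22737 bp into the gene and held no promoter of another gene. Peaks covered 42.08 kb of its 100 kb window and 39.8% of its gene body. Pou2f2 (Oct2), the factor of B cells, had a single peak of 631 bp in its window, 22.6 kb upstream of the TSS used and within both the gene and the overlapping lincRNA gene D930028M14Rik.

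In POU class IV, Pou4f1 (Brn3a), a factor of sensory neurons, had the narrowest promoter peak of the set, 773 bp (chr14:104467263-104468035), of which 36 bp lay upstream and 736 bp downstream of the TSS. Pou4f2, which directs retinal ganglion cells, had an intergenic peak 16.0 kb downstream and a peak in Ttc29 at 44.6 kb, and Pou4f3, which directs hair cells of the inner ear, had none within 117 kb. Pou6f1 lay in a peak of 1597 bp (chr15:100598958-100600554), and the 3 other peaks of its window were at promoters of Dazap2 and 1110013H19Rik, Smagp, and Tfcp2.

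Pou3f2 (TSS at chr4:22488366, - strand) and Pou3f3 (TSS at chr1:42695768, + strand), which act in the embryonic brain, were 130 and 155 kb from the nearest peak. Pou1f1, the factor of growth hormone and prolactin cells of the pituitary, had a single peak 41.3 kb downstream at the promoter of Chmp2b. Pou5f2, a testis gene and the other class V gene beside Pou5f1 (TSS at chr13:78024902, + strand), was the farthest of all 30 from a peak, at 666 kb.

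The second question was whether sequence content goes with the mark. A promoter was called CpG-rich where the 500 bp on either side of the TSS had at least 50% GC and at least 0.6 times the CpGs that base composition predicts. Of the 30 genes 21 were CpG-rich (70.0%, interval 52.1 to 83.3%), against 45.9% of all protein-coding genes. Only 8 of the 21 were marked, which is 38.1% with an interval of 20.8 to 59.1%, whereas 81.3% of all CpG-rich protein-coding promoters were. The share of all CpG-rich promoters lay above the upper bound for the 21. Under 4 other definitions of CpG-rich the share for these genes was 35.0 to 42.1% and that for all genes 79.8 to 86.0%. CpG-rich forkhead promoters (13 of 32, 40.6%, interval 25.5 to 57.7%) and Hox promoters (11 of 23, 47.8%, interval 29.2 to 67.0%) were marked at shares whose intervals overlapped that of the SOX and POU genes.

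**Figure D2:**
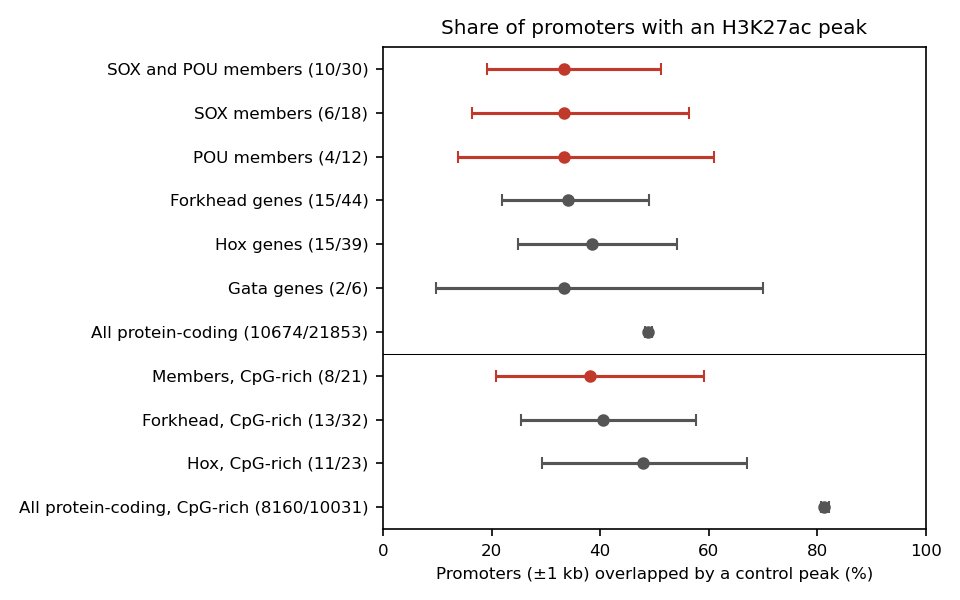
Share of promoters overlapped by an H3K27ac peak in control mESCs (points, %) with 95% Wilson intervals (bars), and numbers marked of all in brackets; rows below the line hold CpG-rich promoters only. Over all promoters the interval of the 30 genes reaches 51.2% and takes in the 48.8% of all protein-coding genes, and over CpG-rich promoters it ends at 59.1%, below their 81.3%.

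The 13 unmarked CpG-rich genes were Sox3, Sox14, Sox11, Sox8, Sox9, Sox7, Sox17, Sox18, Sox30, Pou3f2, Pou3f3, Pou4f2 and Pou4f3. Their CpG ratios ran from 0.603 for Sox14 to 0.908 for Sox11 and overlapped those of the 8 marked CpG-rich genes, which ran from 0.736 for Sox21 to 1.02 for Pou4f1. Over all marked genes of the set the median CpG ratio was 0.776, and over the unmarked it was 0.666. In the 300 bases of the RefSeq promoters, the 3 printed marked ones held 37 to 57 CpGs and the 3 printed unmarked ones 21 to 26. Promoters not printed overlapped in this count, with 22 CpGs in that of Sox21, which was marked, and 28 in that of Sox30, which was not. The promoter with most CpGs, that of Pou4f1, had 86 of its 300 bases in the peak, and that of Sox4, with 12 CpGs, had none.

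Outside CpG-rich promoters the 9 genes resembled the background. Sox15 and Pou2f3 were marked, which is 22.2% (interval 6.32 to 54.7%), against 21.3% of all such promoters. These 2 genes had the widest promoter peaks of the set. The Sox15 peak also covered promoters of 3 other genes, so its width and mark cannot be given to Sox15 alone. The Sox15 promoter had a CpG ratio of 0.512, below the bound of 0.6 but near the median of 0.57 over all protein-coding genes.

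**Figure D3:**
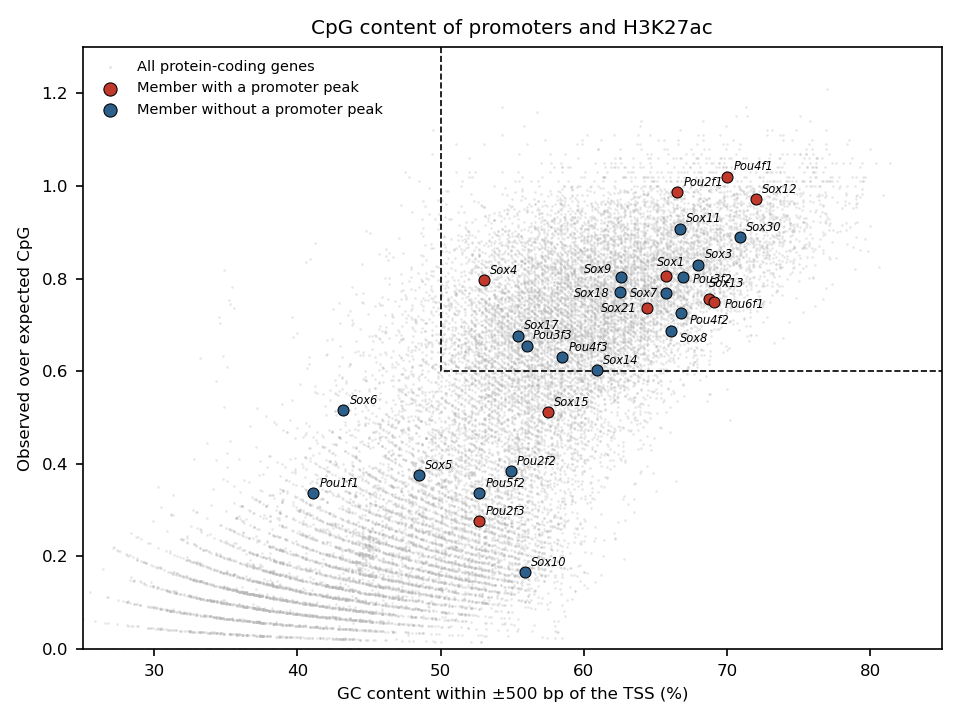
CpG content of promoters, as GC content (%, horizontal) and the ratio of observed to expected CpG (vertical) within 500 bp of the TSS, for all protein-coding genes (grey), marked genes of the set (red) and unmarked genes of the set (blue), 29 of them named; dashed lines bound CpG-rich promoters. Red and blue points mix inside the bounds, where 8 genes are marked and 13 are not.

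Widths of promoter peaks covered a wide range. The lowest was 773 bp (Pou4f1), the median 3088.5 bp and the highest 26667 bp (Pou2f3), against a median of 2174 bp over the 10674 marked protein-coding genes, whose middle 50% lay between 1558 and 4832 bp. Sox4 with 1432 bp, Sox21 with 1505 bp and Pou4f1 were below that middle range, and Sox12 with 9263 bp, Sox15 with 19753 bp and Pou2f3 were above it. A peak of at least 10 kb covered the promoters of 2 of the 30 genes, and 5.27% of all protein-coding promoters had such a peak. Neighbouring peaks within 2 kb were merged by the authors, so a width can span several sites.

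**Figure D4:**
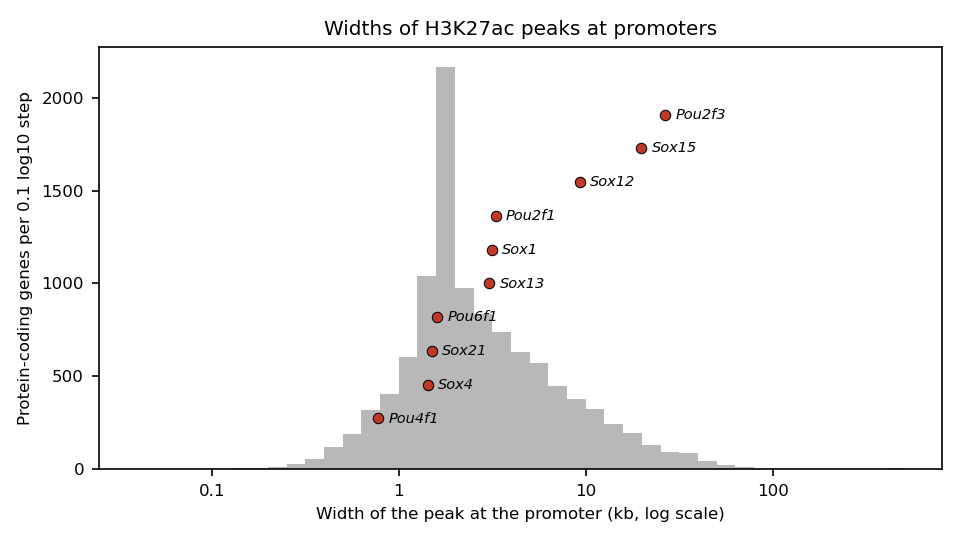
Width of the H3K27ac peak at each marked promoter (kb, log scale) for all marked protein-coding genes (grey histogram, genes per step of 0.1 in log10 width) and for the 10 marked genes of the set (red points, whose height on the page only separates the names). Pou4f1 is narrowest at 773 bp, and Sox12, Sox15 and Pou2f3 stand to the right at 9263, 19753 and 26667 bp.

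The third question was whether acetylated regions lay near the genes without being at their promoters. A peak lay within 50 kb of the TSS for 20 of the 30 genes (66.7%, interval 48.8 to 80.8%), and for 72.3% of all protein-coding genes. The share was 13 of 18 for SOX genes (72.2%) and 7 of 12 for POU genes (58.3%), with overlapping intervals of 49.1 to 87.5% and 32.0 to 80.7%. Among the 20 unmarked genes 10 had such a peak (interval 29.9 to 70.1%), and 45.9% of all unmarked protein-coding genes had. The 10 genes without any peak within 50 kb included Sox3, Sox14, Sox11, Sox9, Sox17, Pou3f2, Pou3f3, Pou4f3 and Pou5f2. Of the 10, 8 had a CpG-rich promoter, and Pou5f2 did not. Over all 30 genes 21 had one (70.0%).

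The number of peaks in the window had a median of 1 (0 to 7), and 2 over all protein-coding genes. The marked genes had a median of 4 peaks (1 to 7) and all marked protein-coding genes 3. The unmarked had a median of 0.5 (0 to 3), and all unmarked protein-coding genes 0 (0 to 11). Peaks covered a median of 16.0 kb of the 100 kb around a marked gene, from 1.98 kb for Pou4f1 to 55.69 kb for Sox15, against 8.69 kb around all marked protein-coding genes. For comparison, 35.04 kb were covered around Sox2 and 48.19 kb around Pou5f1, and only Pou2f3 and Sox15 came within that range or above it.

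The 52 peaks within 50 kb were sorted by place. At promoters of the genes themselves lay 10 (19.2%), at promoters of other genes 17 (32.7%), in bodies of the genes 6 (11.5%), in bodies of other genes 7 (13.5%) and in intergenic DNA 12 (23.1%). Intergenic means outside the promoters and bodies of protein-coding and lincRNA genes, since other gene types were not searched. By side, 9 lay over the TSS, 22 upstream and 21 downstream. Of the 12 intergenic peaks 11 lay around marked genes (Sox1, Sox13, Sox4, Sox21, Sox12 and Sox15), and the other was that of Pou4f2. That is 91.7% around marked genes, against 65.3% over all protein-coding genes. Of all 52 peaks, 73.1% lay around marked genes, close to the 74.3% over all protein-coding genes. Intergenic peaks made up 28.9% of the 38 peaks around marked genes of the set and 12.2% of those around all marked protein-coding genes. Around unmarked genes they made up 7.14% of 14 peaks in the set and 18.7% over all protein-coding genes. The counts are small, and peaks of the same window are not independent. Around unmarked genes 8 of 14 peaks were at promoters of other genes. Peaks that touched a promoter of another gene were then left out, also the 3 of them that lay at promoters of the genes themselves. In that case 14 of the 30 genes had a peak within 50 kb (46.7%), and 59.8% of all protein-coding genes had. Pou2f1 lost its sole peak in this way.

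The fourth question was whether binding motifs of the 2 families occur in these regions. The octamer ATGCAAAT and the SOX site, taken as CATTGT or CTTTGT, were searched on both strands. Promoter windows of 3 genes held the octamer (Sox1, Sox12 and Pou2f3, the last with 2), which is 10.0% against 9.16% of all protein-coding promoters. A SOX site was found in 23 of 30 windows (76.7%), against 88.0%. The SOX site followed after 1 base by the octamer, in which form Sox2 and Pou5f1 can bind together, was found in none of the 52 peaks and occurred 5 times in all 22973, too rarely to compare.

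The 52 peaks held 27 octamers, or 0.109 per kb, against 0.0565 per kb over all peaks. A peak upstream of Sox4 with 4 and the promoter peak of Pou2f3 with 10 held more than the other 50 together, and without them the density was 0.0591 per kb. Counted per peak, the central 1 kb held an octamer in 7 of the 52 peaks (13.5%) and in 5.46% of all peaks. SOX sites occurred at 1.22 per kb in the 52 peaks and at 1.45 per kb in all, while the central 1 kb held a SOX site in 71.2% of the 52 and in 69.8% of all. The 52 peaks had a median GC content of 54.2% and all peaks one of 49.5%, and the part of base content in these densities was not tested.

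The octamers were clustered in the intergenic peak 34.3 kb upstream of Sox4 (chr13:28988055-28989850). All 4 lay within 220 bp, and 8 of the 22973 peaks (0.0348%) held 4 octamers within 300 bp. That count and span were not planned and match this cluster, so the share is no measure of how unusual it is. The stretch is printed on the + strand of mm10, with octamers in capitals in both directions, in which ATTTGCAT is the reverse complement.
Sox4 upstream peak, chr13:28988747-28988986, + strand: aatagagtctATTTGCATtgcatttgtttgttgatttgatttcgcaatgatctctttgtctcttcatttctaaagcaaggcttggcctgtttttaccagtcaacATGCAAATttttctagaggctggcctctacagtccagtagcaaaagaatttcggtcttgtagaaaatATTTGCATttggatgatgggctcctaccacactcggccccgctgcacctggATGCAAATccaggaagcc

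Each of the 4 peaks in the Sox1 window held 1 octamer, at 0.246, 37.4, 43.9 and 50.4 kb downstream of the TSS, and the octamer in the Sox12 promoter lay 0.175 kb upstream of the TSS. They are shown with 15 bases on either side, written in the direction of the octamer, which is in capitals. A match of 8 letters is a description of the sequence and no evidence of binding.
Sox1 promoter peak, chr8:12395522-12395559, + strand: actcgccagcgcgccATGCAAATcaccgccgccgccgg
Sox1 downstream peak at 35.1 kb, chr8:12432701-12432738, + strand: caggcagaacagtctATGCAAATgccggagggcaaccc
Sox1 downstream peak at 42.5 kb, chr8:12439210-12439247, + strand: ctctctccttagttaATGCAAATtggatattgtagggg
Sox1 downstream peak at 48.9 kb, chr8:12445665-12445702, - strand: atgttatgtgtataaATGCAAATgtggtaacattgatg
Sox12 promoter peak, chr2:152398219-152398256, - strand: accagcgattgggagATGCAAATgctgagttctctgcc

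Genes that work with these factors or lie downstream of them were counted in 7 lists of 56 genes, of which 22 were marked (48.8% of all protein-coding genes were). Relatives with an HMG box and cofactors were marked in 9 of 11 cases, among them Tcf7l1 with a peak of 3260 bp, Lef1 with 2078 bp and Ctnnb1 (beta-catenin) with 2947 bp. The exceptions were Sry, the testis-determining gene, and Pou2af1, the B-cell coactivator of octamer factors. Genes listed for B-cell octamer factors (0 of 4) and for pituitary and sensory POU factors (0 of 7), among them Gh, Prl, Isl1 and Atoh1, were unmarked.

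Targets of the other groups were marked in part. Of 10 neural targets 4 were marked, with a peak of 22718 bp at Fgf4, 5194 bp at Nes, 3638 bp at Utf1 and 1725 bp at Otx2. Fgf4 and Utf1 are also stem cell markers and known targets of Sox2 with Pou5f1. Of 8 crest and glial targets 4 were marked (among them Erbb3, Foxd3 and Mbp), of 8 endoderm and vessel targets 3 (Gata4, Gata6 and Kdr) and of 8 cartilage and gonad targets 2 (Dmrt1 and Matn1). With 4 to 11 genes each, the lists allow no finer ranking.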

How the data were processed

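H3K27ac ChIP-seq libraries were made from control, NVP-2 and ActD mESCs, with groups taken from the sample labels. The values used are peak starts and ends, deposited by the authors as a list for both control replicates together. Per the paper's methods, the authors trimmed reads (Cutadapt), aligned them to mm10 together with a human genome (bwa meme), removed duplicates (Picard 2.9.1) and alignments of MAPQ below 10 (samtools 1.4), called peaks with LanceOtron, merged those within 2 kb and filtered them by height and by ATAC-seq summits. A promoter without a listed peak may therefore hold signal below these thresholds.

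Starts were counted from 1. Genes came from GENCODE release M21 of GRCm38 (the study names another release), with 27706 protein-coding and lincRNA genes and their transcripts of those same types only, and sequences from GRCm38.p6, the same build. The members and lists were chosen with earlier results of these data known. The members are named and counted, but single values of 1 of them and of 1 listed target are not reported here; no test was run, since a pooled list of positions has no replicates. Shares have 95% Wilson intervals. Alternatives were other promoter windows (±500 bp, ±2 kb, TSS alone), isoforms, peak widths (at least 1 kb), overlaps (at least 500 bp), distances (25 and 100 kb), peak midpoints, genes without another TSS within 2 kb and peaks away from other promoters. The 5′ end of the gene record, any isoform at 50 kb, other CpG definitions and the count of octamer clusters were added after the data were seen. Overlaps were checked on simulated peaks. Python 3.11.15, numpy 2.4.6, pandas 2.3.3 and matplotlib 3.10.9 were used.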

Additional observations from a re-analysis of the deposited data

How the results depend on the processing

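Of 29 recomputed values over the set, 27 stayed within the interval of the value reported. The share of marked promoters ran from 30.0 to 36.7% under 9 alternatives. The median number of peaks rose from 1 to 2.5 when the window reached 100 kb to each side. It was 0 (1 over all protein-coding genes) when peaks touching a promoter of another gene were left out, also those at the gene's own promoter. The share of genes with a peak within 50 kb was 46.7% in the latter case. Of 266 calls of single promoters, 6 changed, in 5 genes. Sox4 was unmarked (0) when the TSS itself had to lie in a peak, Pou4f1 with peaks of at least 1 kb and Pou2f1 with the longest spliced isoform. Sox6 was marked (1) with any protein-coding isoform or the longest spliced one, and Sox5 with the 5′ end of the gene record, the start of a transcript of another type, an alternative added after the data were seen. No paired analysis was possible because the control replicates are pooled in the list, and no replicate could be left out for the same reason. The list gives no read counts, and a promoter without a peak cannot be told from one below the authors' height thresholds.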
